A study of Homo sapiens with 29 samples.

Results

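The genes described here are long noncoding RNA genes above a set level in PC9 cells. GENCODE 29 types them as lincRNA, antisense, sense_intronic, sense_overlapping or processed_transcript. They were chosen by a mean of 5 TPM or more over 29 RNA-seq libraries, untreated and treated together. TPM is the length-adjusted share of a transcript in a library, on a scale that sums to the same total in each. GENCODE 29 lists 14886 genes of these 5 types, of which 24 had a transcript matched in the table and 19 of those were above 0 TPM in at least 1 library. The rest have no level here, so the count that follows covers the matched genes and not all such genes in PC9 cells. 3 genes reached the mean of 5 TPM, all of type lincRNA: AC008440.3 with a mean of 12.0 TPM, AC233309.1 with 11.1 TPM and BLACAT1 with 6.49 TPM. They are not abundant among all genes that reached that mean, of which 22.4%, 19.8% and 5.62% had a lower mean level than AC008440.3, AC233309.1 and BLACAT1. Just below the threshold stood AC068768.1 at 2.72 TPM and AC004656.1 at 1.56 TPM, and the third gene below was TTTY15 at 1.36 TPM. MALAT1 and NEAT1, the nuclear RNAs best known among the abundant long noncoding RNAs, were not analysed here, so the 3 genes are called by their names and not taken to stand for that class.

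PC9 is an established lung adenocarcinoma cell line with a mutant, erlotinib-sensitive EGFR, and the study asks what the tyrosines of the receptor AXL contribute to bypass signalling. The 10 lines were the parental line (PAR), a CRISPR AXL knockout made from it (KO), and 8 lines made by returning AXL to the KO cells with lentivirus: wild-type AXL (WT), a kinase-dead form (KD) and the 6 tyrosine-to-phenylalanine mutants Y634F, Y643F, Y698F, Y726F, Y750F and Y821F. Each was sequenced untreated (10 libraries), after 24 h of 1 μM erlotinib (E, 10 libraries) and after erlotinib with 300 ng/mL of the AXL-activating antibody AF154 (EA, 9 libraries, none of KO analysed here). The transduced lines are sorted populations, not clones, which by the study's own account keep some KO cells, and the 9 lines other than PAR share their origin in KO cells. AXL was listed at 92.4 TPM in the untreated KO library and 79.3 TPM in the KO library with E, against 217 to 852 TPM in the other 27. Summed epithelial marker genes ranged from 8155 to 11180 TPM across libraries, against 16.2 to 73.0 TPM for fibroblast, 28.7 to 68.9 TPM for leukocyte and 2.17 to 10.2 TPM for endothelial markers. Each line gave 1 library in each treatment, and lines stand as replicates of a treatment, so p-values measure the spread between lines. TPM keeps no sequencing depth, so no counting error can be given. Every value is a share of a library's RNA, and fewer cells of a type and less RNA per cell cannot be told apart.

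Long noncoding RNAs are transcripts without a recognised protein product that are often spliced and polyadenylated like messenger RNAs. Some act in the nucleus as scaffolds of nuclear bodies or on nearby genes, others in the cytoplasm by binding proteins or microRNAs, and many have no assigned function. Long intergenic RNAs (lincRNAs) are those annotated between protein-coding genes. BLACAT1, bladder cancer associated transcript 1, was named for its expression in bladder tumours. AC008440.3 and AC233309.1 carry clone-based names and are described here by their location alone.

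AC008440.3 (ENSG00000232324) lies on the plus strand of chromosome 19 at 53864763 to 53866140 of GRCh38, with 3 exons in its only GENCODE transcript of 555 bases. None of its exonic bases overlaps an exon of another gene, but 28 of its 525 runs of 31 bases (5.33%) also occur in transcripts of 204 other genes, and 26 of them in 164 genes with values here. AC233309.1 (ENSG00000276144) lies on the minus strand of chromosome 12 at 7115736 to 7116486 and has 1 exon of 751 bases. All 751 bases lie inside an exon of C1RL-AS1 on the opposite strand, a gene that was not analysed here. BLACAT1 (ENSG00000281406) lies on the minus strand of chromosome 1 at 205434886 to 205437879 and has 1 exon of 2994 bases. It shares 346 bases (11.6%) with an exon of LEMD1, a gene of LEM domain protein 1 that runs across it on the same strand, and RefSeq gives BLACAT1 the biotype protein_coding where GENCODE 29 gives lincRNA.

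The stretches below are GRCh38 transcript sequence from GENCODE 29, in lower case throughout, and show where reads could be credited to more than 1 gene. The first holds the first 60 bases of the AC233309.1 transcript (chr12:7116427-7116486, minus strand) and the second holds bases 2580 to 2639 of a C1RL-AS1 transcript, which are the reverse complement of the first on the plus strand.
AC233309.1: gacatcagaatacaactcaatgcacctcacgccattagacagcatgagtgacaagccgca
C1RL-AS1: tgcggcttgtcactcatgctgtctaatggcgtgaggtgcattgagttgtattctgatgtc
All 721 runs of 31 bases in AC233309.1 occur in that C1RL-AS1 transcript, whereas 11 of them (1.53%) occur in transcripts of 5 other genes with values here. The handling of strand is not given in the sources used here. Reads of AC233309.1 and C1RL-AS1 therefore cannot be told apart, and the values below are those listed under AC233309.1.

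**Figure D1:**
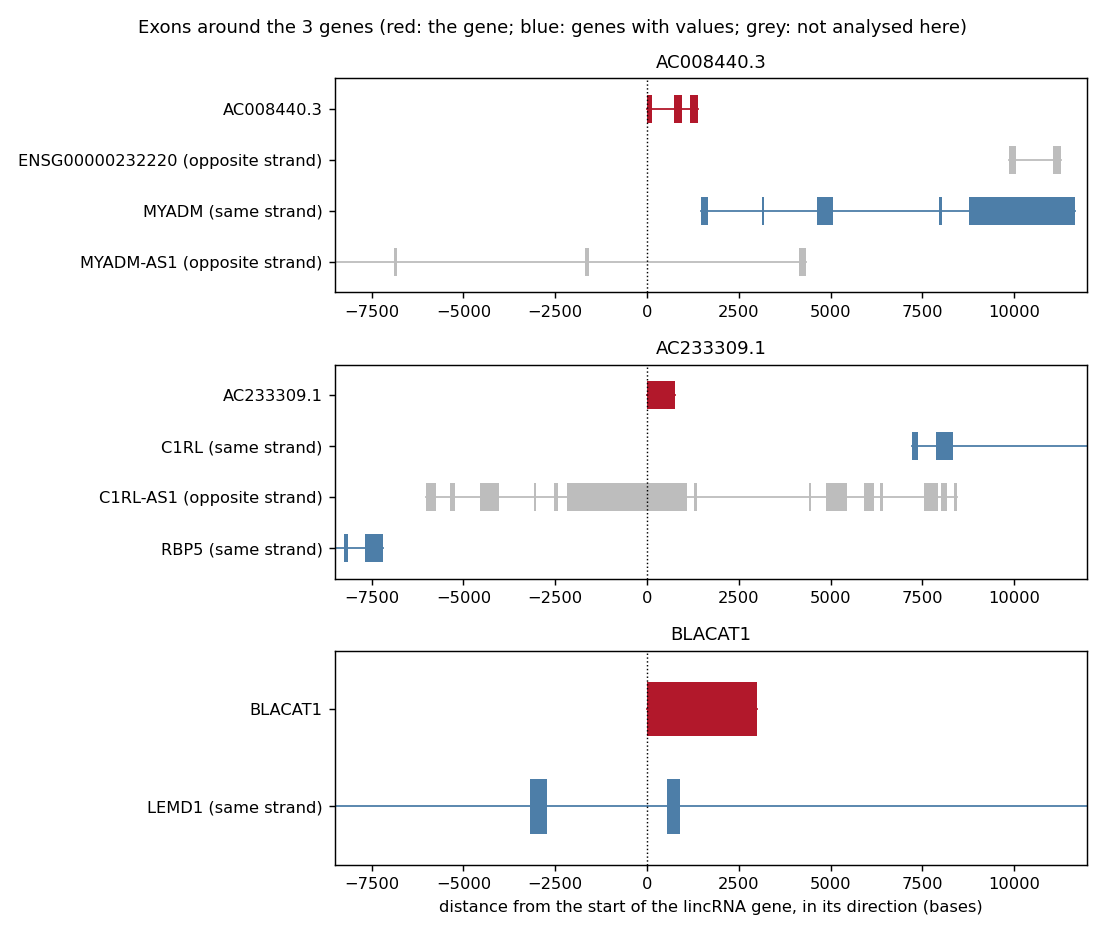
Exons of the 3 lincRNA genes (red) and of the genes around them, from GENCODE 29, against the distance in bases from the start of the lincRNA gene in its own direction of transcription. Blue genes have values here and grey genes were not analysed here. AC008440.3 ends 82 bases before MYADM begins, AC233309.1 lies wholly under a C1RL-AS1 exon on the opposite strand, and a LEMD1 exon of 346 bases lies within BLACAT1.

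One library set stood apart in what follows. PAR was the lowest or near the lowest of the lines in several treated groups. Its mitochondrially encoded genes took 14.4% of TPM untreated, 17.4% with E and 16.4% with EA. Ranges over all lines, PAR included, were 11.4 to 14.4%, 12.3 to 17.4% and 12.9 to 17.4%. PAR thus held the highest share untreated and with E, but not with EA. Whether this share has a part in the PAR values was not tested, and results are given with and without PAR.

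The first comparison asks how erlotinib changed the 3 RNAs. AC008440.3 rose 2.09-fold and AC233309.1 1.55-fold on the TPM + 1 scale. BLACAT1 was 1.43-fold higher with E, which is given as a description because its untreated mean lay under the 5 TPM by which it was chosen. Of the 10918 genes tested, 77.3% changed with E in the same fit, 36.4% higher and 40.9% lower, so a change as such sets neither gene apart. The tests are from limma on log2(TPM + 1) that pairs the libraries of each line, adjusted by Benjamini-Hochberg over all genes tested.

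AC008440.3 ranged from 4.93 TPM in Y726F to 9.42 TPM in KO among the 10 untreated libraries, with a median of 6.62 TPM. With E it ranged from 12.1 TPM in Y726F to 22.3 TPM in Y821F, with a median of 13.8 TPM. The groups did not overlap, and the lowest line was Y726F in both. How many of all genes tested had groups without overlap was not counted. This and the like counts below therefore set no gene apart. Means were 6.75 ± 1.32 TPM untreated and 15.3 ± 3.48 TPM with E (SD, n = 10 each). The log2 change was 1.06 (SE 0.08, 95% interval 0.89 to 1.24, limma adjusted p = 1.87e-08), higher in 10 of 10 lines, and above that of 94.7% of the genes tested. By line it ran from 0.74 in Y698F to 1.57 in Y821F, where the TPM rose 3.26-fold. Without PAR the change was 1.08.

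AC233309.1 ranged from 5.85 TPM in WT to 10.1 TPM in PAR untreated, with a median of 8.003 TPM. With E it ranged from 8.17 TPM in PAR to 15.8 TPM in Y643F, with a median of 13.4 TPM. PAR was thus the highest untreated library and the lowest with E, and the other 9 E libraries stood above every untreated library. Means were 7.95 ± 1.26 TPM untreated and 13.0 ± 2.08 TPM with E (SD, n = 10 each). The fitted log2 change was 0.64 (SE 0.10, 95% interval 0.42 to 0.85, limma adjusted p = 4.94e-05), higher in 9 of 10 lines. In PAR it was −0.28, and in the other lines 0.46 in Y698F to 0.90 in KD. Without PAR the fitted change was 0.74 (adjusted p = 1.06e-07, limma).

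BLACAT1 ranged from 3.79 TPM in PAR to 5.79 TPM in Y634F untreated, with a median of 5.35 TPM. With E it ranged from 5.51 TPM in PAR to 8.38 TPM in KO, with a median of 7.59 TPM. The PAR library with E was the only one of 10 that did not exceed the highest untreated library. Means were 4.93 ± 0.756 TPM untreated and 7.44 ± 0.760 TPM with E (SD, n = 10 each), so BLACAT1 passed the 5 TPM rule only through its treated libraries, its direction was in part fixed by that choice, and no test is given. The log2 change was 0.52 (SE 0.07), higher in 10 of 10 lines. It ran from 0.37 in WT to 0.80 in Y750F, and was 0.52 without PAR. The 3 untreated libraries of lowest BLACAT1 were PAR, Y750F and Y726F, at 3.79, 3.83 and 4.28 TPM.

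**Figure D2:**
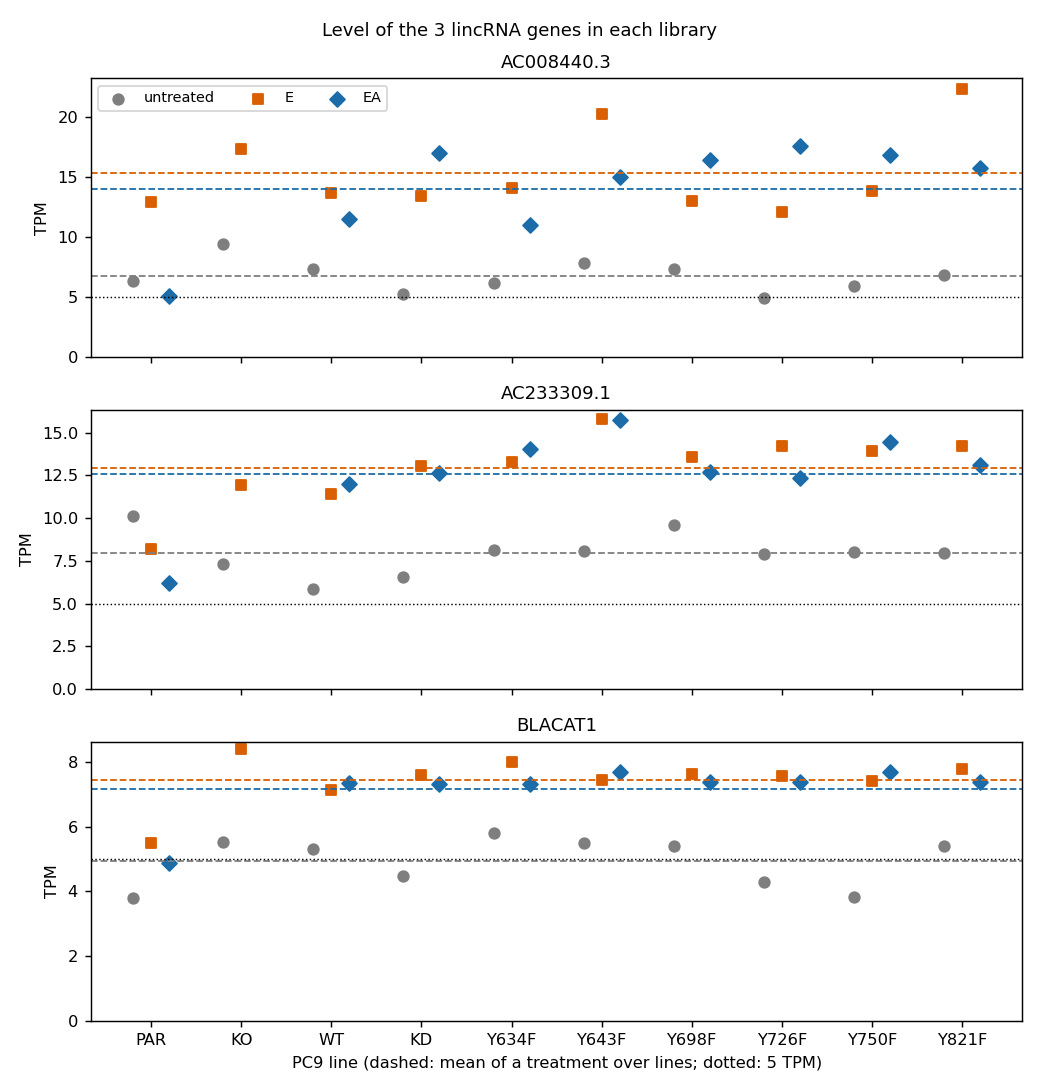
TPM of AC008440.3, AC233309.1 and BLACAT1 (y axes, from 0) in each PC9 line (x axis), 1 point per library: untreated (grey circles), E (orange squares) and EA (blue diamonds). Dashed lines are the means over lines of each treatment and the dotted line is the 5 TPM rule. E libraries lie above all untreated ones except in PAR for AC233309.1 and BLACAT1, and the EA libraries of PAR lie at 5.13, 6.20 and 4.86 TPM, below the EA libraries of every other line. For BLACAT1 the height of treated over untreated libraries is bound up with its choice.

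The second comparison asks what AF154 added to erlotinib in the 8 lines other than KD, whose AXL lacks kinase activity, and KO. In the same kind of fit 1.54% of all genes passed the threshold, 1.31% higher and 0.229% lower, and 2130 did so at an unadjusted p under 0.05. None of the 3 genes passed (limma), and at an unadjusted p under 0.05 the count was also 0.

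AC008440.3 stood at 5.13 TPM in PAR and between 10.98 TPM in Y634F and 17.5 TPM in Y726F in the other EA libraries, with a median of 15.7 TPM over the 9. The log2 difference from E was −0.20 (SE 0.16, 95% interval −0.54 to 0.15, limma adjusted p = 0.528), higher in 3 of 8 lines. Lines went both ways, from −1.19 in PAR to 0.50 in Y726F. Without PAR the difference was −0.05, so most of its size rested on that line. KD alone, with no test, gave 0.32, from 13.4 to 17.0 TPM.

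AC233309.1 stood at 6.20 TPM in PAR and between 12.0 TPM in WT and 15.7 TPM in Y643F in the other EA libraries. Its difference from E was −0.07 (SE 0.06, 95% interval −0.21 to 0.07, limma adjusted p = 0.589), and −0.03 without PAR. For BLACAT1 the EA libraries stood at 4.86 TPM in PAR and between 7.31 and 7.70 TPM in the other lines. The BLACAT1 difference was −0.03 (SE 0.06, 95% interval −0.17 to 0.10, limma adjusted p = 0.800), and −0.02 without PAR. KD alone gave −0.05 for each of these 2 genes. For each gene the order of the treatment means was untreated, EA, E, and the neighbours EA and E did not differ beyond the spread between lines. EA means were 14.0 ± 4.09, 12.6 ± 2.67 and 7.15 ± 0.870 TPM for AC008440.3, AC233309.1 and BLACAT1 (SD, n = 9). In 8 of the 9 lines the EA library of each gene exceeded the highest untreated library, and PAR was the exception for all 3. The same count over all genes tested was not made, so it sets no gene apart. For BLACAT1 it is also bound up with its choice.

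**Figure D3:**
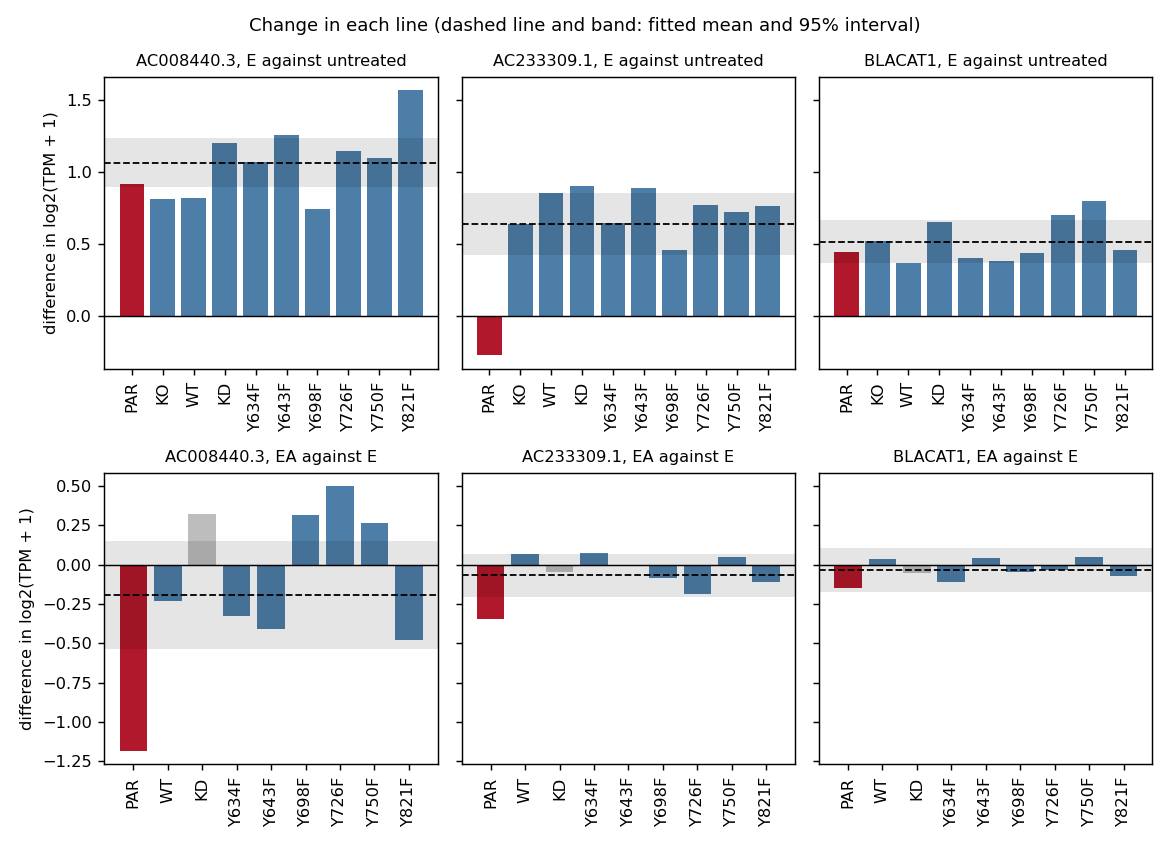
Difference in log2(TPM + 1) in each line (bars) for E against untreated (upper row) and EA against E (lower row), with PAR in red and KD, which is outside the EA fit, in grey. The dashed line and band are the fitted mean and its 95% interval over 10 lines (upper) or 8 lines (lower). For BLACAT1 in the upper row the band is a description and not a test, since its direction was in part fixed by its choice. In the upper row the bar below 0 is that of AC233309.1 in PAR at −0.28, and in the lower row the AC008440.3 bar of PAR reaches −1.19.

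PAR was then set against the 9 KO-derived lines within each treatment, which has no test since 1 line stands on one side. BLACAT1 was lower in PAR than in every other line in all 3 treatments, at 3.79 against at least 3.83 TPM untreated, 5.51 against at least 7.14 TPM with E and 4.86 against at least 7.31 TPM with EA. Untreated, the next line was Y750F, and its gap to PAR was far smaller than the SD over lines. Over all genes tested 19.3% lay outside the range of the other lines in 1 direction in all 3 treatments, and BLACAT1 was the only 1 of the 3 lincRNA genes to do so. AC233309.1 was highest in PAR untreated and lowest there with E and EA. AC008440.3 in PAR stood inside the range of the other lines untreated, with 5 of 9 above it, and with E, with 8 of 9 above it, and below all 8 with EA.

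The treatments separated the libraries more than the lines did for each gene, a description that for BLACAT1 is bound up with its choice. Over the 27 libraries of the 9 lines with all 3 treatments, treatment held 67.3% of the sum of squares of log2(TPM + 1) for AC008440.3, 54.2% for AC233309.1 and 67.8% for BLACAT1, and the line held 13.3%, 20.5% and 24.3%. Medians over all genes tested were 49.9% for treatment and 22.1% for the line. Without PAR the treatment shares became 82.8%, 86.0% and 85.7% and the line shares 6.51%, 9.62% and 4.84%, against medians of 60.2% and 15.03% over all genes. The EA libraries of BLACAT1 outside PAR were the closest together, with a coefficient of variation of 2.12% over 8 lines.

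The neighbours of the 3 genes are given beside them, since reads of adjoining or overlapping transcripts can be shared out between genes. MYADM, which encodes a membrane protein associated with myeloid differentiation, starts 1460 bases downstream of the AC008440.3 start on the same strand. Its level was far higher, with means of 218 TPM untreated, 393 TPM with E and 417 TPM with EA. It rose with E by 0.85 on the log2 scale (SE 0.04, limma adjusted p = 3.95e-11, 10 of 10 lines), and its EA difference of 0.07 did not pass (limma adjusted p = 0.563). LEMD1 had a mean of 2.47 TPM, below the filter, so it was not tested, and the LEMD1 transcript that shares bases with BLACAT1 was listed at 0 in every library. C1RL, a C1r-like serine protease, and RBP5, a cellular retinol-binding protein, flank AC233309.1 on its own strand at gaps of 6462 and 7197 bases, and the flanking genes were added after their values were seen. C1RL averaged 32.7 TPM untreated and 90.7 TPM with E, a log2 change of 1.45 (limma adjusted p = 8.98e-10, 10 of 10 lines). RBP5 averaged 11.9 and 22.5 TPM, a log2 change of 0.86 (limma adjusted p = 4.46e-05, 9 of 10 lines). CDK18, a cyclin-dependent kinase, flanks BLACAT1 on the opposite strand at a gap of 66715 bases. It averaged 18.7 TPM untreated and 24.7 TPM with E, a log2 change of 0.38 (limma adjusted p = 0.000125, 10 of 10 lines). The EA difference of CDK18, −0.24, did not pass (limma adjusted p = 0.0843). KLHDC8A, on the other side of BLACAT1 at a gap of 77795 bases, had a mean of 0.0175 TPM. NLRP12, beside AC008440.3 at a gap of 40368 bases, had a mean of 1.06 TPM. KLHDC8A and NLRP12 were below the filter and were not tested. Runs of 31 bases in BLACAT1 occurred in transcripts of 1 other gene, LEMD1. Whether the reads of these neighbours have a part in the values of the lincRNA genes was not tested.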

How the data were processed

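RNA-seq of polyA-selected RNA from 29 libraries was analysed. The deposited values are TPM per transcript, and the submitters' processing notes name kallisto and GRCh38. The version, annotation release and strand setting are not given in the sources used here. Of 188753 transcripts, 169797 matched a GENCODE 29 transcript and were summed per gene. The matched transcripts held 97.0 to 97.4% of each library's TPM. Genes averaging 5 TPM or more were kept. The members and gene lists were chosen with earlier results of these data known.

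limma 3.58.1 (lmFit, eBayes with trend) in R 4.3.3 was fitted to log2(TPM + 1) of 10918 genes with the line as a block, since the same line was sampled under each treatment, and Benjamini-Hochberg adjusted p under 0.05 was called. The pseudocount of 1 TPM understates the change of low genes. The fit was tested on simulated data. The planned transcript fits were not run, since each member has 1 transcript. Runs of 31 bases shared between transcripts were counted in Python 3.11.15, a step added after the data were seen, and the letters of the AC008440.3 transcript are not reported here. Named genes were the 3 members and the 3 genes just below the threshold, protein-coding genes that overlap a member or start within 2 kb, and the 2 genes of each protein list with the largest change past the threshold. Flanking genes, SNHG32 and TMEM107 fall outside this rule and were chosen after their values were seen. Alternatives covered the pseudocount, filter, scaling, block, weights, threshold, shared transcripts and each line left out.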

Additional observations from a re-analysis of the deposited data

Results flagged for a closer look

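In 15 groups of values (each gene's TPM by treatment and its change by line), 4 held 1 line that lay far from all others for the group's size, and chance gives about 1 in 20, or 0.75 groups. PAR was that line in all 4. AC233309.1 with EA stood at 6.20 TPM in PAR against 12.0 to 15.7 TPM in the other 8 lines. The log2 change of AC233309.1 between E and untreated was −0.28 in PAR against 0.46 to 0.90 in the other 9 lines. BLACAT1 stood at 5.51 TPM in PAR with E against 7.14 to 8.38 TPM in the other 9 lines, and at 4.86 TPM with EA against 7.31 to 7.70 TPM in the other 8. These groups share libraries, so the 4 are not independent of each other.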

How the results depend on the processing

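All 111 values of the 3 genes' changes under the alternatives run kept their direction. The alternatives of filter, block, test threshold and shared transcripts leave a gene's estimate as it is, so there the direction could not change. The direction of BLACAT1 with E was in part fixed by its choice. The count of genes higher with E was 3 when BLACAT1, for which no test is given, was included. Among all genes tested 36.4% were higher (limma). The count of 3 became 1, AC008440.3, when the test was against a log2 change of 0.5. There AC233309.1 had an adjusted p of 0.320 (limma), and the share of all genes higher is not given. The count also became 1 when transcripts sharing exonic bases with another gene were left out, which leaves AC008440.3 alone with a value. The falls from 3 to 1 are read for AC008440.3 and AC233309.1 only. A mean of at least 10 TPM removes BLACAT1, and the 2 genes left were still higher. Leaving out each line in turn kept AC008440.3 and AC233309.1 called higher with E, at changes of 1.01 to 1.10 and 0.61 to 0.74. The BLACAT1 change, given as a description, was then 0.48 to 0.53. For EA against E leaving out each line gave 0 calls throughout. Differences were −0.29 to −0.05, −0.09 to −0.03 and −0.05 to −0.02 for AC008440.3, AC233309.1 and BLACAT1, and each of the values nearest 0 was without PAR. Without the line as a block (no pairing of a line's libraries) AC008440.3 and AC233309.1 were still called higher with E. For EA 0 of the 3 genes passed, with adjusted p of 0.805, 0.926 and 0.942 (limma). Without PAR the share of variance between lines moved to 6.51%, 9.62% and 4.84% and that between treatments to 82.8%, 86.0% and 85.7%. The median log2 change of all genes moved by less than 0.1 under every scaling. Depth is unknown in TPM, which limits what can be said of genes near 5 TPM.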

Other observations

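Proteins that work with nuclear and other long noncoding RNAs were listed as well, and their counts are given beside those of all genes tested, of which 36.4% were higher and 40.9% lower with E (limma). Of 22 paraspeckle proteins 2 were higher and 17 lower, with a median log2 change of −0.42. RBM14, needed for paraspeckle assembly, changed by −1.05 and HNRNPR by −0.73. Of 13 factors of MALAT1 3′ end processing and stability, mostly RNase P subunits, 0 were higher and 11 lower (median −0.56), with RPP25 at −1.67 and POP7 at −1.08. Of 11 nuclear speckle proteins tested 1 was higher and 9 lower (median −0.56), with PNN at −0.98 and the splicing factor SRSF2 at −0.95. Of 17 snoRNP proteins 1 was higher and 16 lower (median −0.80), with NOP56, a core box C/D protein, at −1.65 and ZNHIT3 at 1.62.

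Of 17 nonsense-mediated decay factors 4 were higher and 9 lower (median −0.12), with NCBP1 at −0.62 and MAGOH at −0.48. Of 23 p53 target genes tested 8 were higher and 10 lower (median −0.04), with TP53INP1 at 3.04 and AEN at −1.84. With EA against E, where 1.31% of all genes tested were higher and 0.229% lower (limma), 2 of the 11 nuclear speckle proteins were higher and no other gene of these 6 lists passed the threshold. Among listed snoRNA host gene names 2 were tested, both typed as protein_coding by GENCODE 29. SNHG32 had a mean of 10.7 TPM and changed by 0.26 with E (limma adjusted p = 0.00103, higher in 10 of 10 lines). TMEM107 had a mean of 24.7 TPM and changed by −0.34 (limma adjusted p = 0.000186, higher in 1 of 10 lines).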
